A study of Mus musculus with 36 samples.

Results

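Genes of cell division and of neural progenitors were followed in cultured mouse cortical cells exposed to a glucocorticoid. The set held 39 genes, chosen by name for their known roles and kept where the mean count over 36 libraries was above 5, out of 20355 genes that passed the same filter and 55492 entries in the table. All 39 listed genes passed. They fell into 21 genes of mitosis, 12 genes of G1 and S phase and 6 genes of neural progenitors. Every library came from C57EDCX cells, which are dissociated cortical cells of embryonic day 18 mice, grown for 10 days before 72 h of treatment. Control cultures received fresh medium, DEX cultures received 1 µM of the synthetic glucocorticoid dexamethasone, and DEX + RU-486 cultures received 1 µM DEX with 1 µM mifepristone, an antagonist of the glucocorticoid receptor. Each treatment had 12 libraries, 6 in each of the 2 batches named in the labels, and libraries are numbered 1 to 36 here. Nothing in the labels says that the cultures came from separate animals, so the p-values measure the spread between these cultures. The comparisons ask whether the glucocorticoid moved the RNA of dividing cells and progenitors, and whether the antagonist moved it back.

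A cell that commits to divide first raises cyclin D1, loads the MCM helicase onto its DNA and makes deoxynucleotides, and later switches on a mitotic program of cyclins, kinases, spindle motors and centromere proteins. In the embryonic cortex the dividing cells are radial glia, which carry Sox2, Pax6, nestin and vimentin, and intermediate progenitors, which carry Eomes (Tbr2), while neurons have left the cell cycle for good. Dividing progenitors and glial precursors therefore form a minority in a neuronal culture, and in bulk RNA a change in the number of such cells and a change in RNA per cell cannot be told apart.

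Total counts ran from 12.1 M to 82.4 M (mega counts) per library. The RNA integrity number (RIN, on which intact RNA scores high) moved with treatment in batch 1, where it was 7.8 to 9.2 in control, 3.9 to 7.8 in DEX and 5.6 to 7.9 in DEX + RU-486 libraries, and depth moved with it, with medians of 31.9 M, 14.1 M and 23.5 M counts. Library 12 (DEX, RIN 3.9) and library 18 (DEX + RU-486, RIN 5.6) stood apart in batch 1. In batch 2, 2 libraries of each treatment had a RIN under 3 and the other 4 had a RIN of 6 or above. Each comparison was therefore made within a batch, with all libraries and with those of RIN 6 or above. Neurons, which the label leads to, were present in every library: none of the 13 neuron markers was at 0 in any of the 36, and their summed level was 2770 to 4720 CPM (counts scaled by library size with TMM factors) where RIN was 6 or above. Of 6 known receptor targets, Per1 (log2 fold change 0.80 ± 0.20 SE, edgeR adjusted p = 0.00825) and Tsc22d3 (0.67 ± 0.22, edgeR adjusted p = 0.0351) rose with DEX in batch 1, where 8.99% of all genes rose. The 6 summed to 79.8 to 139 CPM in control (median 84.9) and 110 to 217 with DEX (median 123), and control library 1 alone reached into the DEX range. None was called with DEX in batch 2 at RIN 6 or above, where 0.565% of all genes were called.

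The promoters of the members are shown because the division genes are known to be switched on together through shared elements. In RefSeq promoters of GRCm38.p6, taken from 250 bases before to 50 bases after the start, 33 of the 39 members were matched to 36 promoters. Ccna2, Ccnd1, Ccne2, Aurkb, Mcm4 and Tpx2 were not matched. On both strands a search was made for the cell-cycle homology region (CHR), spelled TTTGAA, for the CCAAT box, which is spelled as it is named, and for E2F elements. An E2F element was read as the letters TTCCCGC, as the variant form TTGGCGC, or as the variant form TTCGCGC. Elements of different kinds can share bases, such as a CCAAT box that begins inside an E2F element. Below, matches are in capitals, either as these letters or as their reverse complement, and each sequence runs 5′ to 3′ on the strand of its gene. Cdk1, Plk1 and Top2a stand for mitosis, and Mcm5 and Mcm7 for S phase.
Cdk1 (chr10:69352863-69353162, minus strand): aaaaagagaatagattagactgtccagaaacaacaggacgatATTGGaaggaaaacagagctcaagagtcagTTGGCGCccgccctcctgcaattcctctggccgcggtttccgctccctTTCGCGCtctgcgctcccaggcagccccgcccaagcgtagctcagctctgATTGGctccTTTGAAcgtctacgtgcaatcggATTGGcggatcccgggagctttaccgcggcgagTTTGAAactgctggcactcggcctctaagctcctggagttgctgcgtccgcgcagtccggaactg
Plk1 (chr7:122159185-122159484, plus strand): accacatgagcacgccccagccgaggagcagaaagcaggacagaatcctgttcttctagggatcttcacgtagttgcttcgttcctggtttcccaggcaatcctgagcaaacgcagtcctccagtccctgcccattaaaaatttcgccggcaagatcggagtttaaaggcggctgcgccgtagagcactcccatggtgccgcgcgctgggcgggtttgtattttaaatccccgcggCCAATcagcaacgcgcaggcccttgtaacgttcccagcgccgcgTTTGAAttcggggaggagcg
Top2a (chr11:99024140-99024439, minus strand): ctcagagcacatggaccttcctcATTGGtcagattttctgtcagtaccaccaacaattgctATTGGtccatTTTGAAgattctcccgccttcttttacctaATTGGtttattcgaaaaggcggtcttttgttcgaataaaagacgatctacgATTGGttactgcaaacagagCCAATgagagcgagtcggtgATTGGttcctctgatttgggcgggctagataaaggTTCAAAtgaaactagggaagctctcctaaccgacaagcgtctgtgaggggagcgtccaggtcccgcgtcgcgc
Mcm5 (chr8:75109259-75109558, plus strand): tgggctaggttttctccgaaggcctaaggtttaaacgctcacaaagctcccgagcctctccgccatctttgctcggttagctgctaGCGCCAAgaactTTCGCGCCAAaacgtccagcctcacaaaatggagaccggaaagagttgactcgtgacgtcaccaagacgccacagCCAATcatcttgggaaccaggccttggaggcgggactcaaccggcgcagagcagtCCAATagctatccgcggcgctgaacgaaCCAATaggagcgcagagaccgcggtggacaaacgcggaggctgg
Mcm7 (chr5:138171834-138172133, minus strand): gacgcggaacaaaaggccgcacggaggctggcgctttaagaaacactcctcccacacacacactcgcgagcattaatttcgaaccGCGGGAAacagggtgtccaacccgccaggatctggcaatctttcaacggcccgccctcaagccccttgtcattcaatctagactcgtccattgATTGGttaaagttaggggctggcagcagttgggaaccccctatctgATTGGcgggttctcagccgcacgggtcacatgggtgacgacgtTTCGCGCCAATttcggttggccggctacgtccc
The mitosis promoters of Cdk1, Plk1 and Top2a hold both a CHR and a CCAAT box, and those of Mcm5 and Mcm7 hold CCAAT boxes and E2F elements with no CHR. The promoter of Cdk1 also holds E2F letters. The shares by role follow, and their differences were not tested. The CHR was found in 14 of 19 promoters of mitosis genes (73.7%), in 1 of 10 of G1 and S phase genes (Mcm2) and in 1 of 7 of progenitor genes, against 17.9% of all 32851 promoters. E2F letters were found in 6 of the 10 G1 and S phase promoters (60%) and in 3 of the 19 mitosis promoters (15.8%), against 8.07% of all promoters. Among progenitor promoters they were found in 1 of 7 (14.3%). The CCAAT box was found in 29 of the 36 promoters (80.6%), against 37.4% of all. By role its share was 84.2% for mitosis, 80% for G1 and S phase and 71.4% for progenitor genes. These matches describe the letters and show no binding.

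Levels were compared between genes per kilobase of exon, in the 10 control libraries of RIN 6 or above. Pcna, the sliding clamp of DNA replication that also serves DNA repair, had the highest level at a median of 10 CPM per kilobase (9.09 to 11.5). Mcm7, a subunit of the replicative helicase, followed at 3.82 (2.86 to 5.95). This pools the batches, which differed for some members. The median of Sox2 was 1.44 CPM per kilobase in the 6 control libraries of batch 1 and 6.06 in the 4 of batch 2, that of Vim was 1.56 and 3.94, and that of Mcm7 was 3.5 and 5.56, so Sox2 lay below Mcm7 in batch 1 and overlapped it in batch 2. The highest mitosis gene was Cenpe, a centromere motor, at 0.82 CPM per kilobase. The mitotic kinases Cdk1 and Aurkb and the cyclin Ccnb1 had the lowest pooled medians of all 39. These were 0.0705, 0.0684 and 0.0676 CPM per kilobase, and they did not differ beyond their spread. Other mitotic kinases had higher medians, at 0.371 for Plk1 and 0.329 for Aurka. In batch 2 alone Bub1 was lowest, at 0.0834. In batch 1 the counts behind Cdk1 were 1 to 22 per library, so its differences rest on few reads.

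**Figure D1:**
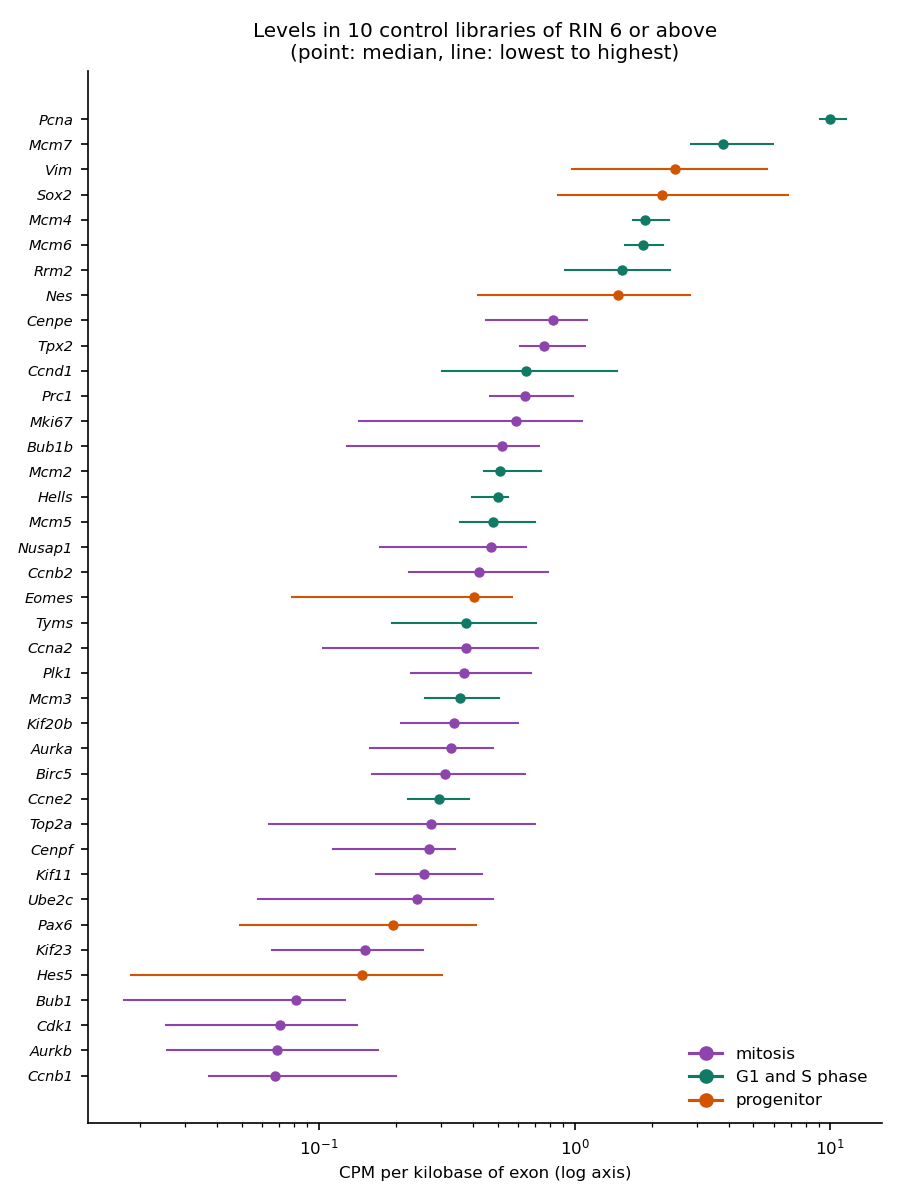
Level of each of the 39 genes in CPM per kilobase of exon (log axis) in the 10 control libraries of RIN 6 or above, with both batches pooled and the median as a point and the lowest to highest library as a line. Pcna is highest at 10, and the mitosis genes lie at 0.82 or below.

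With all 36 libraries in a single fit and batch as a term, no member differed between treatments by edgeR's quasi-likelihood test at an adjusted p under 0.05. Among all genes 5 were called for DEX against control, which is 0.0246% of those tested, and 0% for both DEX + RU-486 against control and DEX + RU-486 against DEX. At an unadjusted p under 0.05 the members numbered 6, 6 and 1 of 39 in these 3 comparisons, where 16.9%, 10.8% and 2.68% of all genes passed the same threshold. DESeq2 called 2 members for DEX against control (Cdk1 and Mcm7), against 2.25% of all genes, and none in the others, against 0.594% and 0.00983%. The median log2 fold change of the 39 was 0.43 for DEX and 0.37 for DEX + RU-486 against control, and 0.01 between them.

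Within batch 1, 14 of the 39 genes rose with DEX and 1 fell. Among all tested genes 8.99% rose and 9.99% fell. The median log2 fold change was 0.853 over the members and 0.0581 over all genes, and 36 of the 39 values were positive. By role, 5 of 6 progenitor genes rose (Nes, Sox2, Pax6, Eomes, Vim; median 1.86), 4 of 21 mitosis genes rose (Cdk1, Top2a, Mki67, Plk1; median 0.853), and 5 of 12 G1 and S phase genes rose (Ccnd1, Mcm2, Mcm3, Mcm5, Mcm7; median 0.363) while Rrm2 fell. Among libraries of RIN 6 or above, 10 members rose and 1 fell, against 9.26% and 9.72% of all genes, with a median of 0.613. All 11 of those were among the 15. With RIN added as a term to the fit of batch 1, a setting chosen after seeing the data, no member was called, against 2.78% of all genes, 6 had an unadjusted p under 0.05 (19.3% of all genes), and the median over the members was 0.0286. DESeq2 called 18 with all libraries, adding Ccna2, Hes5 and Ube2c, against 22.6% of all genes. The count also fell from 15 to 7 without control library 2 and to 8 without control library 5 or DEX library 12. At RIN 6 or above it fell from 11 to 7 without DEX library 9. The share of all genes called was not recorded for fits that left out 1 library, here or below. Such drops are therefore not shown to be particular to the members. With all libraries of batch 1, Ccnd1, Cdk1, Eomes, Mcm7, Nes, Sox2 and Vim were called whichever of the 12 libraries was left out. At RIN 6 or above Cdk1 was called in 7 of the 11 such fits, Eomes in 10 and the others in all 11.

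The plot of single libraries shows where these differences lie.

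**Figure D2:**
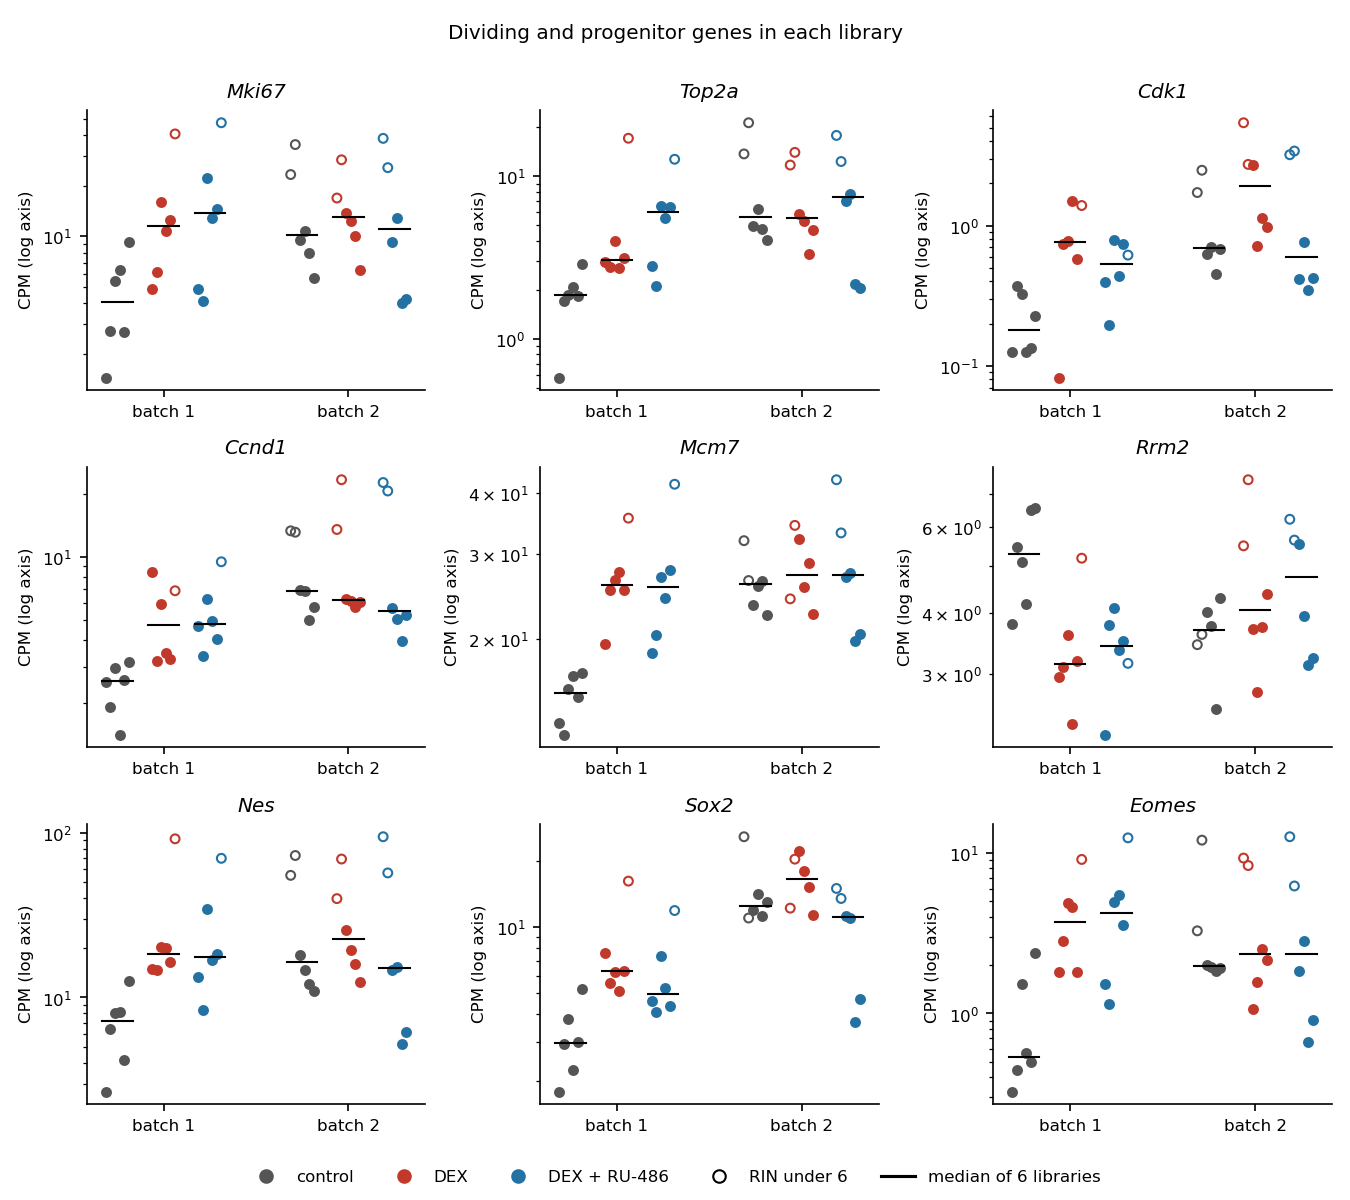
CPM (log axis) of 9 members in each of the 36 libraries, by batch and treatment, with open circles for a RIN under 6 and a bar at the median of 6 libraries. In batch 1 the Ccnd1, Mcm7 and Nes values of DEX lie above those of control, and in batch 2 the open circles of Mki67, Nes and Eomes lie above the filled ones.

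Among progenitor genes, nestin (Nes), an intermediate filament of radial glia, was 2.68 to 12.6 CPM in batch 1 control libraries (median 7.23), 14.7 to 91.8 with DEX (median 18.3) and 8.45 to 69.9 with DEX + RU-486 (median 17.6; n = 6 each). The lowest DEX value was above the highest control value. The log2 fold change was 2.12 ± 0.52 (edgeR adjusted p = 0.0075) and 1.35 ± 0.33 without library 12 and the other library of RIN under 6 (edgeR adjusted p = 0.00644). Vimentin (Vim), the filament protein that accompanies nestin in radial glia and in other non-neuronal cells, was 4.63 to 14.7 CPM in control (median 7.41) and 14.2 to 55.5 with DEX (median 21.9). Its groups touched at a single control library, 6, and it rose by 1.73 ± 0.42 on the log2 scale (edgeR adjusted p = 0.00745), or 1.38 ± 0.31 at RIN 6 or above (edgeR adjusted p = 0.00367).

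Sox2, a transcription factor that keeps neural stem cells undifferentiated, was 1.78 to 5.25 CPM in control (median 2.96) and 5.1 to 16.2 with DEX (median 6.3), a rise of 1.34 ± 0.32 (edgeR adjusted p = 0.00631), and of 1.02 ± 0.24 at RIN 6 or above (edgeR adjusted p = 0.00507). The highest control library, 6, reached into the DEX range. Eomes, the transcription factor of intermediate progenitors, was 0.326 to 2.37 CPM in control (median 0.534) and 1.8 to 9.1 with DEX (median 3.73). Its rise of 2.17 ± 0.57 (edgeR adjusted p = 0.0112) was 1.81 ± 0.51 at RIN 6 or above (edgeR adjusted p = 0.0162). Pax6, a radial glia transcription factor, was 0.576 to 2.45 CPM in control (median 1.67) and 1.48 to 10.4 with DEX (median 2.81). Its difference was 1.31 ± 0.45 (edgeR adjusted p = 0.0426) with all libraries and 0.78 ± 0.37 (edgeR adjusted p = 0.156) at RIN 6 or above. Hes5, a Notch effector that holds back neuronal differentiation, was 0.025 to 0.24 CPM in control (median 0.122) and 0.0581 to 1.33 with DEX (median 0.45), and was not called at 2.00 ± 0.72 (edgeR adjusted p = 0.0555).

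Among G1 and S phase genes, cyclin D1 (Ccnd1), which opens G1, was 1.42 to 3.15 CPM in batch 1 control libraries (median 2.56), 3.18 to 8.48 with DEX (median 4.71) and 3.35 to 9.47 with DEX + RU-486 (median 4.81). Both treated groups lay above control without overlap. The DEX difference was 1.13 ± 0.29 (edgeR adjusted p = 0.00994) and 1.05 ± 0.27 at RIN 6 or above (edgeR adjusted p = 0.0097). Mcm7 was 12.7 to 17 CPM in control (median 15.5), 19.5 to 35.5 with DEX (median 25.8) and 18.7 to 41.7 with DEX + RU-486 (median 25.6), again without overlap. Its DEX difference of 0.84 ± 0.17 had the smallest adjusted p of the 39 genes (edgeR, 0.00215), and it was 0.76 ± 0.13 at RIN 6 or above (edgeR adjusted p = 0.000469). Exons of Mcm7 overlap those of Ap4m1 by 321 bases and of Cops6 by 64 bases on the other strand, and exons of Ccnd1 overlap 1100 bases of LTO1. Whether counting used the strand is not given in the sources used here, so these reads are uncertain.

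Mcm2 and Mcm5, further subunits of the helicase, also rose. Mcm2 was 3.08 to 5.02 CPM in control (median 3.46) and 4.53 to 10.5 with DEX (median 6.02), at 0.82 ± 0.24 (edgeR adjusted p = 0.0227), or 0.65 ± 0.21 at RIN 6 or above (edgeR adjusted p = 0.0361). Mcm5 was 1.43 to 2.78 CPM in control (median 1.69) and 2.63 to 6.38 with DEX (median 3.23), at 0.99 ± 0.32 (edgeR adjusted p = 0.0345), or 0.78 ± 0.21 at RIN 6 or above (edgeR adjusted p = 0.0146). Mcm3 was called with all libraries at 1.26 ± 0.44 (edgeR adjusted p = 0.0472) and not at RIN 6 or above, at 0.69 ± 0.28 (edgeR adjusted p = 0.0909). Mcm4 and Mcm6, of the same hexamer, were not called at either setting, and nor were the cyclin of S phase entry Ccne2, the thymidylate synthase Tyms (0.39 ± 0.40 with all libraries) and the chromatin remodeller Hells. Rrm2, the small subunit of ribonucleotide reductase that makes deoxynucleotides for replication, went the other way, with 3.81 to 6.56 CPM in control (median 5.28), 2.38 to 5.18 with DEX (median 3.15) and 2.26 to 4.1 with DEX + RU-486 (median 3.43). It fell by 0.59 (SE 0.21) on the log2 scale (edgeR adjusted p = 0.0484), and at RIN 6 or above by 0.73 (SE 0.20; edgeR adjusted p = 0.0128), where every DEX library lay below every control library. Pcna was not called, at 23 to 27.6 CPM in control (median 24.9) and 19.5 to 33.2 with DEX (median 28.4), a difference of 0.19 ± 0.12 (edgeR adjusted p = 0.277), or 0.24 ± 0.12 at RIN 6 or above (edgeR adjusted p = 0.173), where it was called in 1 of the 11 fits that left out a library.

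Among mitosis genes, Mki67, whose protein coats mitotic chromosomes and marks cells in cycle, was 1.45 to 9.31 CPM in batch 1 control libraries (median 4.09), 4.86 to 40.6 with DEX (median 11.6) and 4.14 to 47.3 with DEX + RU-486 (median 13.7). The groups overlapped, and the highest value of each treated group was that of its library of low RIN. The DEX difference was 1.74 ± 0.56 (edgeR adjusted p = 0.0334) with all libraries and 1.18 ± 0.45 at RIN 6 or above (edgeR adjusted p = 0.0714). Top2a, the topoisomerase that untangles sister chromatids, was 0.576 to 2.88 CPM in control (median 1.85) and 2.72 to 17.1 with DEX (median 3.05), at 1.61 ± 0.48 (edgeR adjusted p = 0.0233), and at 0.83 ± 0.33 (edgeR adjusted p = 0.0885) at RIN 6 or above. Library 12 alone held the 17.1, and the next DEX library was at 3.97.

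Cdk1, the kinase that drives entry into mitosis, was 0.125 to 0.371 CPM in control (median 0.181) and 0.0823 to 1.5 with DEX (median 0.763). In all, 5 of the 6 DEX libraries lay above all controls, and library 7, at 0.0823, lay below them with a count of 1. The difference was 1.99 ± 0.54 (edgeR adjusted p = 0.0137), and 1.82 ± 0.56 at RIN 6 or above (edgeR adjusted p = 0.0271). Plk1, a kinase of spindle assembly and mitotic exit, was 0.505 to 0.902 CPM in control (median 0.706) and 0.947 to 2.91 with DEX (median 1.25) without overlap, at 1.29 ± 0.45 (edgeR adjusted p = 0.0451), or 1.08 ± 0.38 at RIN 6 or above (edgeR adjusted p = 0.0478). Its call was kept in 3 of the 12 fits that left out 1 library, and in 2 of the 11 at RIN 6 or above. Ccnb1, the cyclin that activates Cdk1, was 0.158 to 0.295 CPM in control (median 0.251), 0.116 to 1.64 with DEX (median 0.293) and 0.428 to 3.39 with DEX + RU-486 (median 0.639), so the DEX + RU-486 libraries lay above control and the DEX libraries overlapped it. Apart from Cdk1 and Plk1, none of the mitosis genes was called with DEX at RIN 6 or above, and their values ran from -0.56 for the spindle checkpoint kinase Bub1 to 1.18 for Mki67.

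**Figure D3:**
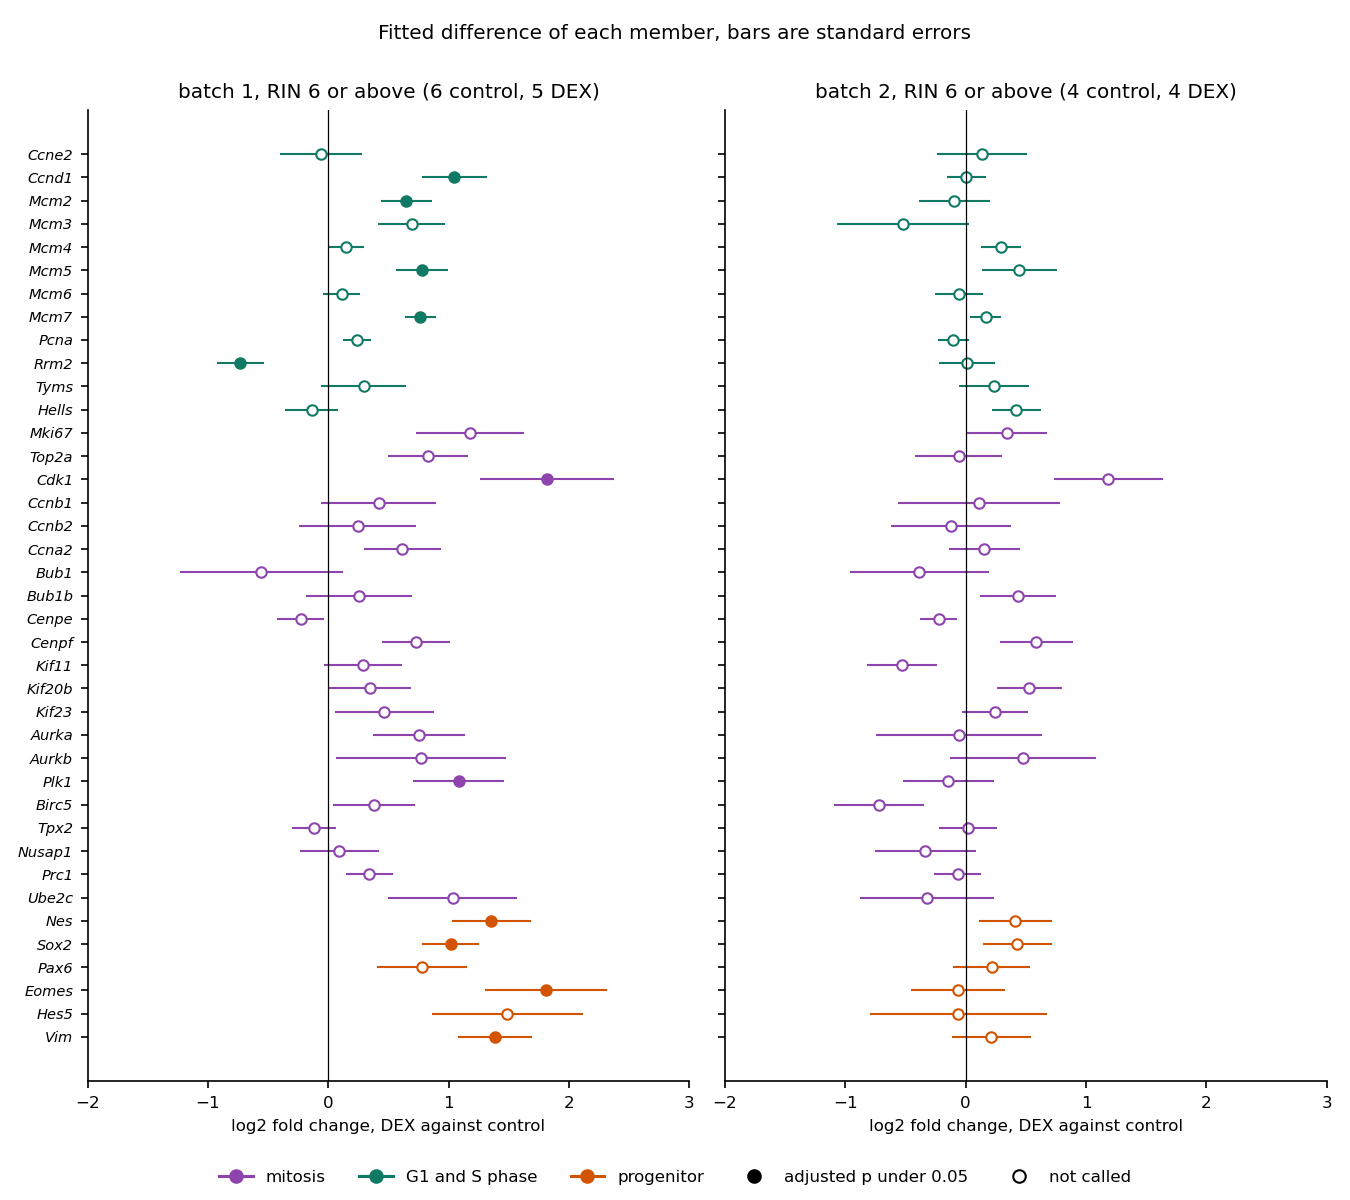
Fitted log2 fold change of DEX against control for each of the 39 genes in libraries of RIN 6 or above, with standard errors, in batch 1 (6 control and 5 DEX libraries) and batch 2 (4 and 4). Filled points had an adjusted p under 0.05 in edgeR, which were 11 genes in batch 1 and none in batch 2.

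DEX + RU-486 was compared with the same control libraries of batch 1, so its values are not independent of those above. Here 11 members rose and 1 fell, against 6.92% and 8.46% of all genes, and the median was 0.831 over the members and 0.0526 over all genes. At RIN 6 or above the counts were 10 and 1, against 6.36% and 7.1% of all genes. Eomes had 2.35 ± 0.57 (edgeR adjusted p = 0.00997) and Nes 1.96 ± 0.52 (edgeR adjusted p = 0.0149). Ccnd1 had 1.18 ± 0.29 (edgeR adjusted p = 0.0103) and Mcm7 0.83 ± 0.17 (edgeR adjusted p = 0.00385). Ccnb1 rose by 2.14 ± 0.62 with all libraries (edgeR adjusted p = 0.0232) and by 1.34 ± 0.44 at RIN 6 or above (edgeR adjusted p = 0.0487), and Rrm2 fell by 0.63 (SE 0.21; edgeR adjusted p = 0.0418). Ccnb1 kept its call in 9 of the 12 fits that left out 1 library and in 1 of the 11 at RIN 6 or above, and Rrm2 in 5 and 3. The count of members called fell from 12 to 3 (Ccnd1, Eomes and Mcm7) without DEX + RU-486 library 18. It fell to 7 without control library 2 and to 6 without control library 5. At RIN 6 or above it fell from 11 to 4 without DEX + RU-486 library 15 or 16 or control library 2, and to 6 without DEX + RU-486 library 17 or control library 5. With RIN as a term no member was called, against 2.6% of all genes, and 3 had an unadjusted p under 0.05 (19.7% of all genes). Directly against DEX, no member was called with all libraries of batch 1 (0% of all genes; no member at an unadjusted p under 0.05, against 4.09% of all genes) or at RIN 6 or above (0% of all genes; 1 member, Mcm5, at an unadjusted p under 0.05 with -0.50 ± 0.23, against 5.84% of all genes), and DESeq2 called none either, against 0.00983% and 0.0786% of all genes.

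In batch 2 no member was called between treatments. With all 18 libraries 0% of all genes were called in each of the 3 comparisons, and the members at an unadjusted p under 0.05 numbered 1 for DEX, 0 for DEX + RU-486 and 1 for DEX + RU-486 against DEX, where 2.19%, 0.894% and 2.18% of all genes did so. At RIN 6 or above, with 4 libraries a group, the DEX comparison called 0.565% of all genes, DEX + RU-486 against control 0.00491% and DEX + RU-486 against DEX 1.56%. The members at an unadjusted p under 0.05 numbered 1, 1 and 7 of 39, where 17.2%, 7.55% and 19.3% of all genes did so, and DESeq2 called 0, 0 and 1, against 4.99%, 0.157% and 7.42% of all genes. The median over the members was 0.0185 for DEX against control, -0.0698 for DEX + RU-486 against control and -0.187 for DEX + RU-486 against DEX, with 0.00596, 0.0253 and 0.0115 over all genes.

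Single genes of batch 2 are given library by library at RIN 6 or above. Ccnd1 was 6.93, 6.84, 5 and 5.79 CPM in the 4 control libraries of RIN 6 or above, 6.32, 6.13, 5.79 and 6.11 with DEX, and 5.71, 5.03, 3.96 and 5.29 with DEX + RU-486. The DEX values lay within the control range, with a difference of 0.00 ± 0.16 (edgeR adjusted p = 0.994), while all DEX + RU-486 libraries lay below all DEX libraries at -0.29 ± 0.16 (edgeR adjusted p = 0.367). Cdk1 was 0.624, 0.698, 0.453 and 0.686 CPM in control, 2.71, 0.711, 1.13 and 0.982 with DEX, and 0.413, 0.763, 0.348 and 0.423 with DEX + RU-486. The DEX libraries lay above control at 1.18 ± 0.45, which was not called (edgeR adjusted p = 0.19). DEX + RU-486 and DEX libraries overlapped, at 0.763 against 0.711 CPM. Their difference of -1.50 ± 0.47 was not called (edgeR adjusted p = 0.0912). Birc5, an inhibitor of apoptosis in the chromosomal passenger complex, was 2.18, 1.37, 1.12 and 1.23 CPM in control and lower with DEX at 0.481, 1.11, 1.07 and 0.873, a difference of -0.72 ± 0.37 that was not called.

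Sox2 had the smallest adjusted p of the members for DEX + RU-486 against DEX. It was 12, 14.1, 11.2 and 13 CPM in control libraries 21 to 24, 22.3, 18, 15.3 and 11.3 in DEX libraries 27 to 30, and 11.2, 11, 3.7 and 4.69 in DEX + RU-486 libraries 33 to 36. No DEX + RU-486 library reached the lowest DEX library, by a margin of 11.2 to 11.3 CPM. The difference was -1.13 ± 0.29 (edgeR adjusted p = 0.0594), which DESeq2 called and edgeR did not. Nes was 14.6, 15.4, 5.22 and 6.17 CPM and Vim 17.2, 21.6, 7.03 and 6.78 CPM in the same 4 DEX + RU-486 libraries, so libraries 35 and 36 were the low ones for all 3 genes. These 2 had the highest RIN of batch 2, at 8.7 and 8.5, and without them, a setting chosen after seeing the data, the Sox2 difference was -0.60 ± 0.22 (edgeR adjusted p = 0.575). Oligodendrocyte markers summed to 360, 400, 138 and 192 CPM in libraries 33 to 36. Oligodendrocyte precursor markers summed to 44.7, 55, 22.1 and 26.5 CPM there, so libraries 35 and 36 were low for both. The part of these markers in the values of Sox2, Nes and Vim was not tested. Without DEX + RU-486 library 34 the count was 2 (Sox2 and Mcm5), and without library 33 or DEX library 30 it was 1.

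The treatment differences themselves were compared between batches at RIN 6 or above. No member had a different response at an adjusted p under 0.05 by edgeR, whereas 4.25% of all genes did for DEX against control, 1.91% for DEX + RU-486 against control and 0.00491% for DEX + RU-486 against DEX. At an unadjusted p under 0.05 the members numbered 7, 12 and 1 of 39, where 18.7%, 15.8% and 11.2% of all genes did so, and DESeq2 was not run on this term. The smallest adjusted values for DEX were those of Mcm7 (-0.54 ± 0.19 in batch 2 relative to batch 1, edgeR adjusted p = 0.0964) and Ccnd1 (-0.99 ± 0.34, edgeR adjusted p = 0.0973). For DEX + RU-486 they were those of Nes (-1.80 ± 0.50, edgeR adjusted p = 0.0529), Mcm7 (-0.67 ± 0.19, edgeR adjusted p = 0.0529) and Sox2 (-1.40 ± 0.39, edgeR adjusted p = 0.0538). A call in batch 1 and none in batch 2 is therefore not shown to be a difference between them. With both batches in a single fit of RIN 6 or above, 8 members were called for DEX, against 19.7% of all genes. Cdk1 (1.48 ± 0.38, edgeR adjusted p = 0.00562), Cenpf, Mcm5, Mcm7, Nes, Sox2 and Vim rose and Rrm2 fell. In that fit DEX + RU-486 against control called 1 member, Mcm7, against 8.86% of all genes, and DEX + RU-486 against DEX called none, against 0% of all genes.

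In batch 2 more members differed with RNA integrity than with treatment, and so did more of all genes. Of all 20355 genes, 11236 were called for integrity, against 0% in each treatment comparison with all 18 libraries. With treatment as a term, 23 of the 39 genes were higher and 1 lower in the 6 libraries of RIN under 3 than in the 12 of RIN 6 or above, where 28.4% of all genes were higher and 26.8% lower. The median over the members was 0.886 and over all genes 0.0385. Nes was 5.22 to 25.7 CPM at RIN 6 or above (median 14.7) and 39.8 to 94.5 at RIN under 3 (median 63.1), without overlap, at 2.22 ± 0.23 (edgeR adjusted p = 6.96e-08). Vim was 6.78 to 31.5 CPM (median 18) against 61.5 to 98.2 (median 72.8), and Ccnd1 3.96 to 6.93 (median 5.79) against 13.1 to 23.3 (median 17.1). Markers of neurons, which do not divide, were higher as well, with sums of 2770 to 3200 CPM at RIN 6 or above and 6100 to 10800 at RIN under 3, and vascular and fibroblast markers summed to 1.91 to 6.77 against 7.88 to 29.6 CPM. Their part in the differences of the members was not tested. Mki67 was 4.02 to 13.8 CPM (median 9.39) against 16.9 to 38.2 (median 27), at 1.64 ± 0.23 (edgeR adjusted p = 4.46e-06).

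The same direction held for Ube2c, which loads ubiquitin for the anaphase-promoting complex, at 2.60 ± 0.36 (edgeR adjusted p = 2.84e-06), Aurkb, the passenger complex kinase, at 2.45 ± 0.39 (edgeR adjusted p = 1.8e-05), and Eomes at 2.26 ± 0.28 (edgeR adjusted p = 8.36e-07). Sox2 differed from Nes and Vim here, at 3.7 to 22.3 CPM (median 11.6) against 11 to 25.8 (median 14.2) and 0.47 ± 0.23, which was not called (edgeR adjusted p = 0.0915). Kif20b, a kinesin of cytokinesis, was the 1 gene that was lower, at -0.64 ± 0.23. Rrm2, which fell with DEX in batch 1, was higher at RIN under 3 by 0.46 ± 0.19 (edgeR adjusted p = 0.0487). Of the 15 members called for DEX in batch 1, 13 were also among the 24 called here, Pax6 and Sox2 being the exceptions, and 12 of those 13 had the same direction in both. Over all genes, 2701 of the 3862 called for DEX (69.9%) were among the 11236 called for RIN, and 2269 of the 2701 (84%) had the same direction. The 13 members are 86.7% of the 15 and 54.2% of the 24, and the 2701 genes are 24% of the 11236. RIN and treatment went together in batch 1, so their parts in the differences of that batch cannot be told apart from these libraries, and the value with RIN as a term is given above.

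**Figure D4:**
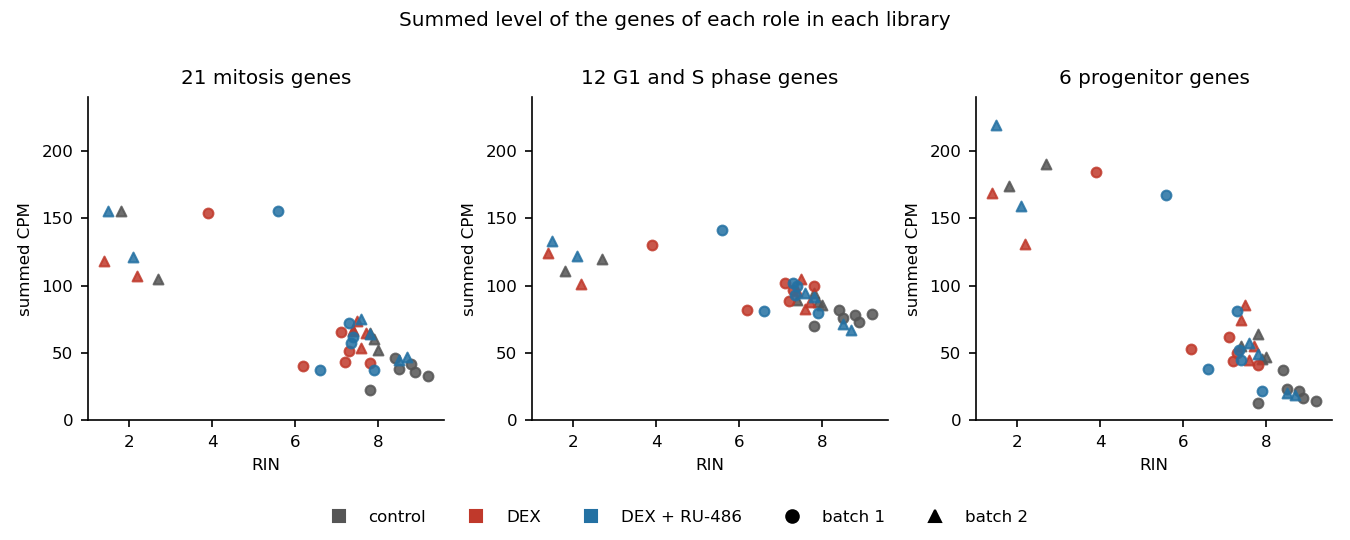
Summed CPM of the mitosis, the G1 and S phase and the progenitor genes in each of the 36 libraries against RIN, by treatment (colour) and batch (shape). The libraries of RIN under 6 hold sums of 105 to 155 for mitosis and 131 to 219 for progenitor genes, above all libraries of higher RIN.

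The summed level of the 21 mitosis genes was 22.5 to 46.2 CPM in batch 1 control libraries (median 36.8), 40.3 to 154 with DEX (median 47.7) and 37.3 to 155 with DEX + RU-486 (median 59.7). The 6 progenitor genes summed to 12.6 to 37.2 CPM in control (median 19.3), 41 to 184 with DEX (median 51.5) and 22.2 to 167 with DEX + RU-486 (median 48.6). The 12 G1 and S phase genes summed to 70.2 to 82 CPM in control (median 76.9), 81.8 to 130 with DEX (median 98.4) and 79.5 to 141 with DEX + RU-486 (median 96.8). In batch 2 at RIN 6 or above the progenitor sums were 45.9 to 64.1 in control, 45.1 to 85.9 with DEX and 19 to 57.2 with DEX + RU-486. All control libraries of batch 2 thus lay above the highest control library of batch 1. Between control libraries of RIN 6 or above other markers were apart as well. Oligodendrocyte precursor markers summed to 6.61 to 21.5 CPM in batch 1 (median 8.96) and 58.5 to 75.2 in batch 2 (median 63.9), oligodendrocyte markers to 70 to 316 and 406 to 545, and neuron markers to 3670 to 4720 and 2860 to 3200, none with overlap. Their part in the batch differences of the members was not tested.

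The members were also compared between batches at RIN 6 or above with treatment as a term. In batch 2, 16 genes were higher and 2 lower than in batch 1, against 23.4% and 24.7% of all genes. Of the 21 mitosis genes 11 were higher and all 21 values were positive, with a median of 0.468. Sox2 had the largest difference at 1.36 ± 0.19 (edgeR adjusted p = 7.08e-07), Pax6 had 0.79 ± 0.23 (edgeR adjusted p = 0.00647), and Top2a had 0.72 ± 0.23 (edgeR adjusted p = 0.0107). Pcna (-0.32 ± 0.078, edgeR adjusted p = 0.00132) and Mcm2 (-0.37 ± 0.16, edgeR adjusted p = 0.0487) were lower, and Mki67 was not called at 0.14 ± 0.28 (edgeR adjusted p = 0.697). In the same fit all 6 oligodendrocyte precursor markers and 2 of 6 oligodendrocyte markers were higher in batch 2, and 9 of 13 neuron markers were lower and 2 higher.

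Other genes of the same processes were read from lists beside the members, and the shares of all genes are again 8.99% higher and 9.99% lower. In batch 1 with DEX, 5 of 47 other mitosis genes rose and none fell (median 0.391; 4 rose and 1 fell at RIN 6 or above), among them Bora (1.36 ± 0.26, edgeR adjusted p = 0.00161), an activator of Aurora A, and Foxm1 (0.59, edgeR adjusted p = 0.0431), a transcription factor of the mitotic genes. Of 49 other S phase genes 2 rose and 2 fell (median 0.0592), with Mcm10 higher (1.25, edgeR adjusted p = 0.00776) and Usp1 lower (-0.90, edgeR adjusted p = 0.00148). Of 38 regulators of the cycle 8 rose and 2 fell (median 0.254), and the smallest adjusted p was that of Btg2 (1.85 ± 0.25, edgeR adjusted p = 0.000331), which restrains proliferation. Gadd45b, a stress-induced growth arrest gene, also rose (1.55, edgeR adjusted p = 0.00209), so genes that drive and genes that restrain the cycle were both among those that rose. Of 35 other progenitor and neurogenic genes 13 rose and 4 fell (median 0.362), with Notch1 higher (2.00, edgeR adjusted p = 0.00255) and Dcx, a gene of migrating young neurons, lower (-0.88, edgeR adjusted p = 0.00171). The summed level of that list went the other way, from 1700 to 2760 CPM in control (median 2350) to 1580 to 2420 with DEX (median 1790). In batch 2 at RIN 6 or above no gene of these 4 lists was called with DEX, where 0.565% of all genes were called.

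Markers of other cell types moved beside the members, and their part in the result was not tested. In batch 1, where 8.99% of all genes rose and 9.99% fell with DEX, all 6 oligodendrocyte markers rose with DEX, and their summed level was 70 to 316 CPM in control, 582 to 2630 with DEX and 247 to 1070 with DEX + RU-486. Oligodendrocyte precursor markers, of which 4 of 6 rose, summed to 6.61 to 21.5, 22.4 to 87.9 and 15.1 to 57.5 CPM. Of 9 astrocyte markers 4 rose, with sums of 34 to 47.6, 37.8 to 73.4 and 35.8 to 73.8 CPM, while 7 of 13 neuron markers fell and 1 rose. Of 8 vascular and fibroblast markers tested 1 rose, and none was called at RIN 6 or above, where 9.26% of all genes rose and 9.72% fell. Their sums were 1.7 to 6.79 CPM in control (median 3.03), 2.39 to 15 with DEX (median 6.86) and 2.96 to 16.1 with DEX + RU-486 (median 9.32). Microglia markers summed to 3.47 CPM or less in every batch 1 library, and Tmem119 was at 0 in 22 of the 36 libraries. In batch 2 at RIN 6 or above, 5 of 6 oligodendrocyte and 2 of 6 precursor markers were lower with DEX + RU-486 than with DEX, at sums of 138 to 400 against 713 to 1190 CPM for the oligodendrocyte markers. Among all genes 1.56% were called in that comparison, in either direction.

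Other limits bear on single members. A count of 0 was found for 4 members. These were Bub1 in DEX library 8, which allows up to 0.203 CPM at 3 counts, Aurka in DEX library 27 (up to 0.103), Aurkb in DEX + RU-486 libraries 15 and 16 (up to 0.181 and 0.12) and Hes5 in control library 19 (up to 0.178). These limits cover counting error only. Ccnb1, Ccnb2, Pcna and Tyms have annotated pseudogene copies, so their counts depend on how reads that match several places were treated. Exons of Prc1, Ube2c, Ccne2, Ccna2, Hes5, Nusap1, Plk1 and Eomes overlap a gene on the other strand by 118 to 911 bases. On the same strand, exons of Top2a overlap Gm23451 by 122 bases, and those of Mcm7 overlap Mir25 by 84 and Mir93 by 88 bases.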

How the data were processed

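RNA was sequenced from 36 libraries of embryonic day 18 mouse cortical cultures, in 3 treatments and 2 batches. Per the labels and the submitters' processing notes, the authors aligned reads to GRCm38 with HISAT2 2.1.0 and counted them with Subread 1.5.0-p2, and they deposited a table of raw counts per Ensembl gene. The labels name a poly(A) library and the study's methods a total RNA library, and which applies to these counts was not settled. The study's methods describe mapping to a composite of the genome and spliced ribosomal protein mRNAs, with no mismatch allowed and reads of more than 1 locus dropped, which would lower the counts of genes with close copies. Whether the deposited table came from that mapping was not settled, and the use of strand in counting is not given in the sources used here.

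From the counts, symbols and positions were taken from GENCODE M21 (55227 of 55492 entries matched). Genes with a mean count above 5 were tested with edgeR 4.0.16 (TMM factors, quasi-likelihood test, Benjamini-Hochberg adjustment over 20355 genes, called at adjusted p under 0.05) in R 4.3.3, with DESeq2 1.42.0 as an alternative. Errors beside fold changes are standard errors, ranges are the lowest and highest library, and CPM is TMM-scaled over all libraries. Fits were made over all libraries with batch as a term, in each batch, and at RIN 6 or above. Total counts of 12.1 M to 82.4 M (M, mega) limit the precision of low genes such as Cdk1 and Hes5. No 2 libraries held identical counts. The tests were checked on simulated counts, but the outcome is not given here and no result rests on it. Values are given for 13 members chosen by name and for every other member called over all 36 libraries together or, within a batch, at RIN 6 or above (Mcm7, Rrm2, Mcm5 and Plk1), beside further members where a count or comparison turns on them, which were picked after their values were seen. Genes of the other lists were named from at most 4 a list, those called with the smallest adjusted p, except Tmem119, a microglia marker too low to be tested, which was picked after its values were seen. The members, their roles and the other lists were chosen with earlier results of these data known. Promoters were RefSeq sequences of GRCm38.p6.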

Additional observations from a re-analysis of the deposited data

Results flagged for a closer look

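In 15 of 102 groups of 6 libraries, 1 library lay far from the other 5. Its gap to its neighbour, relative to the whole range, was above Dixon's 95% critical value. Chance passes that value in about 1 in 20 groups where values are normally distributed and groups are independent. Here CPM was not transformed and the genes share libraries, so the 15 cannot be weighed against that rate. Of the 15, 8 belonged to DEX library 12 of batch 1, which had a RIN of 3.9. Its CPM was 91.8 for Nes (next library 20.2), 55.5 for Vim (next 26.8), 40.6 for Mki67 (next 15.9) and 17.1 for Top2a (next 3.97). It was 16.2 for Sox2 (next 7.66), 10.4 for Pax6 (next 4.09), 6.38 for Mcm5 (next 3.78) and 1.64 for Ccnb1 (next 0.602). Its oligodendrocyte markers summed to 2630 CPM (next DEX library of batch 1 at 924) and its precursor markers to 87.9 (next 67.8).

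A further 5 belonged to DEX + RU-486 library 18 of batch 1, which had a RIN of 5.6. Its CPM was 63.8 for Vim (next 27), 7.16 for Mcm5 (next 2.63) and 3.7 for Plk1 (next 1.6). It was 3.39 for Ccnb1 (next 0.723) and 1.54 for Hes5 (next 0.33). Its oligodendrocyte markers summed to 1070 CPM (next DEX + RU-486 library of batch 1 at 757) and its precursor markers to 57.5 (next 32.6). In batch 2, control library 19 (RIN 2.7) had 25.8 CPM of Sox2 (next 14.1). Its oligodendrocyte precursor markers summed to 331 CPM (next control library of batch 2 at 75.2) and its oligodendrocyte markers to 2580 CPM (next 545), and the part of these markers in the values of libraries 12, 18 and 19 was not tested. Control library 20 (RIN 1.8) had 12 CPM of Eomes (next 3.27). Its vascular and fibroblast markers summed to 29.6 CPM (next control library of batch 2 at 10.9), and their part in its Eomes value was not tested.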

How the results depend on the processing

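The number of members called depended on RIN and on single libraries. Over all 36 libraries, where edgeR called 0 members for DEX against control, DESeq2 called 2, RIN as a term gave 1 (Cdk1) and the libraries of RIN 6 or above gave 8, while the share of all genes called went from 0.0246% to 2.25%, 2.24% and 19.7%. For DEX + RU-486 against control, 0 became 1 at RIN 6 or above (8.86% of all genes). In batch 1, adding RIN as a term, which was chosen after seeing the data, took the count from 15 to 0 for DEX and from 12 to 0 for DEX + RU-486. Over all 20355 genes the number called fell as well, from 3862 to 565 (2.78%) for DEX and from 3131 to 529 (2.6%) for DEX + RU-486. Between DEX + RU-486 and DEX in batch 2 at RIN 6 or above, 0 became 1 (Sox2) under DESeq2. The cause of these changes was not tested. Leaving out 1 library at a time gave 7 to 16 members for DEX in batch 1 and 7 to 12 at RIN 6 or above. For DEX + RU-486 against control it gave 3 to 14 and 4 to 12. The share of all genes called was not recorded for these fits, so the ranges are not shown to be particular to the members. For DEX + RU-486 against DEX in batch 2 at RIN 6 or above it gave 0 to 2, with 2 without DEX + RU-486 library 34 and 1 without library 33 or DEX library 30. Every other treatment comparison within a batch stayed at 0 whichever library was left out. Upper-quartile scaling, no filter on low counts, a filter of at least 10 counts in every library (which tested 24 of the 39 members), no batch term and the 2 groups compared alone did not move a count over all 36 libraries.

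No paired analysis was possible because the library numbers of the labels run from 1 to 36 and no number occurs in more than 1 treatment group. Depth limits the precision of the lowest genes. At 12.1 M counts a library gave 1 read of Cdk1, and the part of depth in that value was not tested.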
